A study of Sardinops sagax and Scomber japonicus with 20 samples.

Results

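Livers of adult male chub mackerel (Scomber japonicus) were compared between 5 fish exposed for 5 h to 12.5 pM 17α-ethynylestradiol (EE2) and 5 fish left unexposed. The values come from all 9191 rows of the mackerel result table that the authors deposited, out of 15907 rows over the 2 species of the series. The fish came from a live-bait dealer in Mission Bay, San Diego, and were held in flow-through seawater at about 17 °C on pelleted feed. Total liver RNA was made into TruSeq libraries, and 20 fish were sequenced in the series, 10 of them mackerel. The labels name no vehicle for the unexposed fish, no tank and no pairing of fish.

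Each row carries a fugu (pufferfish) gene model and a human gene symbol, and the 9191 rows hold 7400 symbols. Rows with a mean normalized count of at least 10 carry most of what follows. There were 1756 of them (19.1%), with 1580 symbols and 95.8% of the recovered reads. The table does not state which group is the numerator of its fold change. Genes are therefore given as higher on the positive or on the negative side of the fold change, and neither side is assigned to exposure.

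EE2 is the synthetic estrogen of contraceptive pills, and it binds the nuclear estrogen receptors. In the liver of egg-laying fish, estrogen receptors switch on genes for vitellogenin, the yolk precursor, and for egg envelope proteins of the zona pellucida family, which travel to the ovary in the blood. Male fish carry the same genes and make little of their products unless they meet an estrogen. The liver also makes most blood proteins, synthesizes sterols and bile acids and breaks down amino acids, so changes in these groups are described beside the hormone genes.

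Whole numbers behind the mean normalized counts were recovered for all 9191 rows, 1 number for each side, and are called reads here. Positive-side reads summed to 376343 and negative-side reads to 332486. Where 2 read numbers are given for a gene, the positive side comes first. Values are those of a single row, and a gene may have further rows. A row held a median of 4 reads over both sides, and a row with a mean of at least 10 held a median of 42. A scaled ratio is the positive-side reads over the negative-side reads of a row after scaling to equal depth, with its exact 95% interval, which covers counting error only. There were 358 pairs of read numbers that occurred in at least 2 rows, and 0 of them had more than 1 fold change or standard error in the authors' deposited table. Fold change and standard error thus followed from the 2 totals of a row, and no value here shows the spread between fish. Depth per fish is unknown. The adjusted p of the authors' deposited table is the test used for a call, at 0.05.

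The most counted rows were those of blood proteins. In bulk liver, fewer cells of a type and less RNA per cell cannot be told apart for these or any later gene. FIBCD1, a gene with a fibrinogen-like domain, had 23145 positive-side and 21335 negative-side reads, which was 6.15% and 6.42% of all reads of each side. The gamma chain of fibrinogen, FGG, had 14840 and 18547 reads, a scaled ratio of 0.647 (95% interval 0.633 to 0.661). The alpha chain FGA had 15441 and 15085 reads, at 0.828 (0.810 to 0.847). All 3 genes were thus a little lower on the positive side, by more than counting error. The beta chain FGB was lower there by the most, with 9888 and 14963 reads and a scaled ratio of 0.535 (0.521 to 0.548). FGB was the only row among the 15 most counted that the authors' DESeq2 test called, with a log2 fold change of -0.86 ± 0.25 (SE) and an adjusted p of 0.00496 in their deposited table. Gene lengths were not used, so these read numbers rank rows within the table and not transcripts per cell.

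Among the other most counted rows, 5 were higher on the positive side by the exact binomial test of the reads. Prothrombin, F2, had 5115 and 2880 reads, a scaled ratio of 1.44 (1.37 to 1.5). The mitochondrially encoded oxidase subunit COX1 had 4745 and 2711, at 1.42 (1.35 to 1.48), and FABP6, of the fatty acid binding family, 7188 and 4342, at 1.34 (1.29 to 1.39). The iron-binding LTF, of the transferrin family, and the ribosomal gene RPL23 both stood at 1.17. On the negative side were 2 rows of complement C3, at 0.685 (0.657 to 0.714) and 0.698 (0.666 to 0.732), and the heme carrier HPX at 0.876 (0.849 to 0.904). The haptoglobin-related HPR had a row of 19852 and 17499 reads at 0.918 (0.899 to 0.937) and a row of 8762 and 7162 reads at 0.990 (0.959 to 1.02). This smaller row and RPL8, at 0.939 (0.901 to 0.980), were the rows of the 15 that the exact test with Benjamini-Hochberg adjustment did not call. Scaling the sides by their read totals raises log2 ratios of all rows by 0.127, which the intervals do not cover. The side of a row near 1, such as the larger HPR row, thus depends on the scaling.

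**Figure D1:**
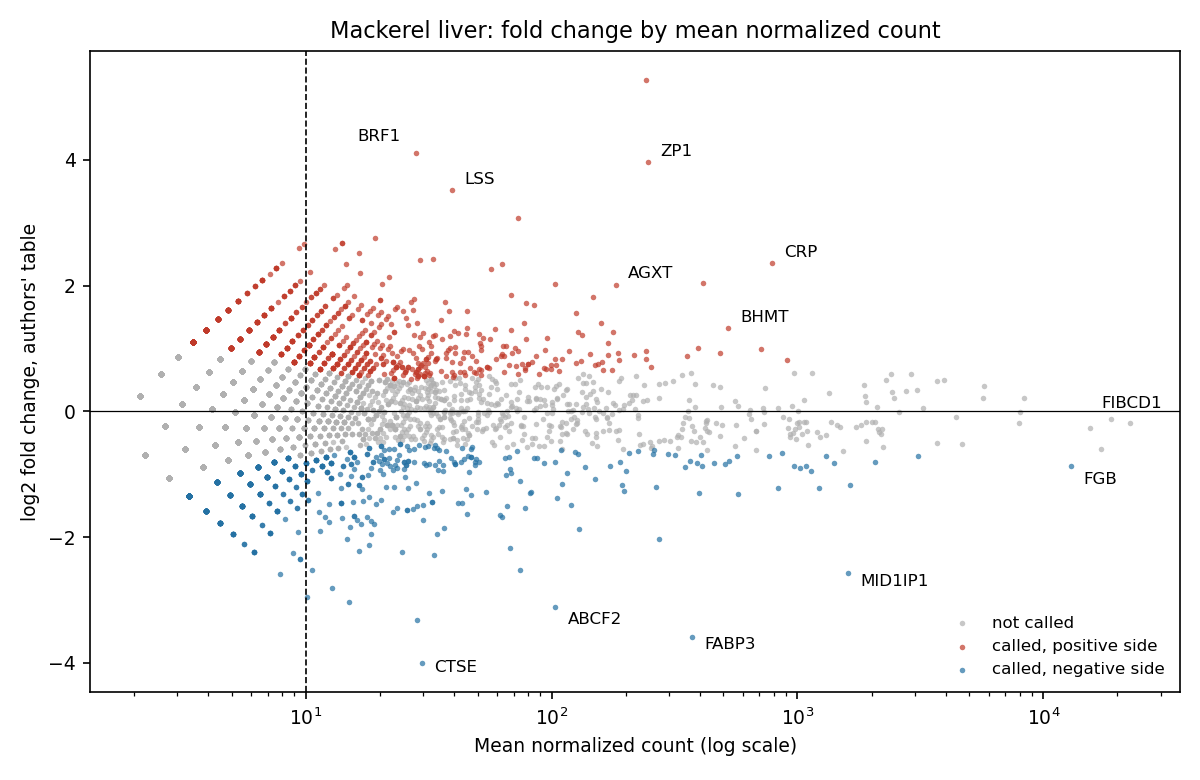
Each point is 1 row of the mackerel table, with its mean normalized count on the x axis (log scale) and the log2 fold change of the authors' deposited table on the y axis; colour marks rows called on either side at an adjusted p under 0.05. The most counted rows lie near 0, and the largest fold changes, up to 5.27 for a CRP row, belong to rows of intermediate count.

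In all, the authors' DESeq2 test called 1570 rows, or 24.8% of the 6319 that had an adjusted p, with 890 positive (14.1%) and 680 negative (10.8%). Above the minimum mean of 10 it called 722 of 1756 rows (41.1%), 451 positive (25.7%) and 271 negative (15.4%). The counts of each gene list below are to be read against these shares. Counts near them show no more than the table as a whole. A log2 fold change of at least 1 in size was reached by 306 of these rows (17.4%), 199 positive (11.3%) and 107 negative (6.09%), and all 306 were called. The two-sided exact test of the reads called 349 of the 1756 rows (19.9%), 173 positive (9.85%) and 176 negative (10%), of which 252 were called on the same side by the authors' test. Over all rows the exact test called 374 of 9191 (4.07%), 190 positive (2.07%) and 184 negative. With the sides scaled by their read totals in place of the scaling in the table, which moves log2 ratios of all rows by 0.127, this split became 237 positive and 140 negative.

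The split of calls between the sides differed with the read number. Of the 1276 rows with a mean from 10 to 50, 363 were called positive (28.4%) and 199 negative (15.6%), with 0.16 as the median log2 fold change from the authors' deposited table. From a mean of 500 up there were 106 rows, of which 4 were called positive (3.77%) and 19 negative (17.9%), at a median of -0.20 in the same table. The standard error in the authors' deposited table was smallest, 0.200, at a mean of 26.4 and stood between 0.249 and 0.253 in all rows above 500, although these held a median of 2344 reads. The smallest log2 fold change called was accordingly 0.51 in size between 10 and 50 and 0.65 from 500 up. The exact test, whose intervals narrow with the read number, called 59 negative and 23 positive rows from 500 up.

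**Figure D2:**
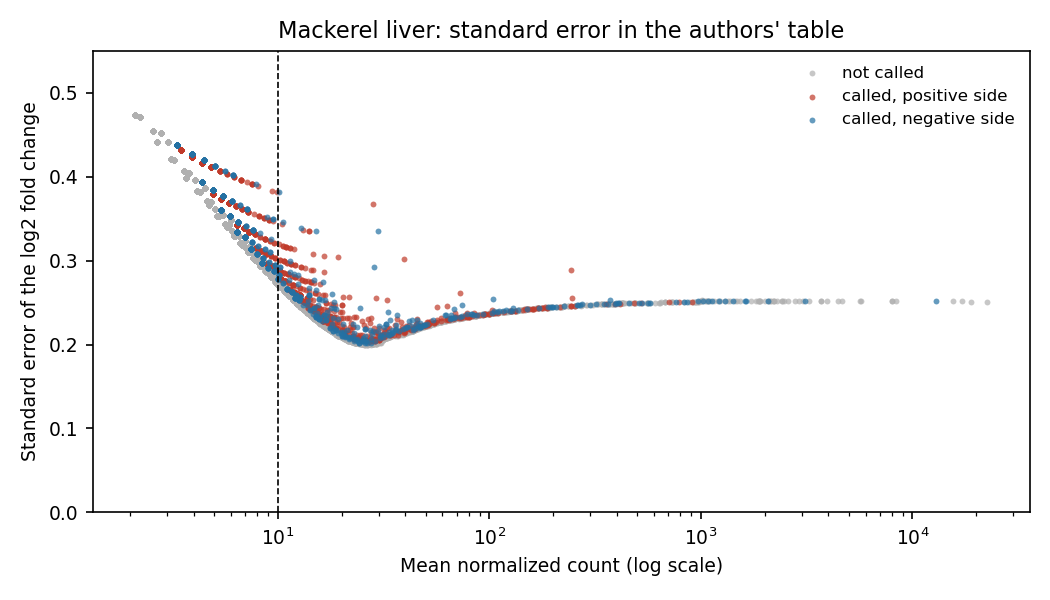
Standard error of the log2 fold change in the authors' deposited table (y axis) against the mean normalized count (x axis, log scale), 1 point per row. The error falls from 0.473 in the lowest rows to 0.200 at a mean of 26.4, then climbs to about 0.25 and stays there.

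The 12 largest positive fold changes among called rows with a mean of at least 10 included an egg envelope gene, sterol enzymes and cytochromes P450. The pentraxin CRP, an immune recognition protein of the blood, had the largest, with 521 and 7 reads, and ZP1, of the egg envelope, had 510 and 22. P11, which the table describes as a serine protease, had 143 and 11 reads, a scaled ratio of 10.5 (5.70 to 21.5). BRF1, a subunit of the initiation factor of RNA polymerase III, had 58 and 0 reads, at least 15.6-fold higher against a floor of 3 reads on the negative side, and its fold change ranked between those of CRP and ZP1. All 4 rows had intervals of the ratio far from 1. MYEF2, named for a myelin gene regulator, had 53 and 6 reads, at 7.15 (3.07 to 20.3). A row of the apolipoprotein APOA4 had 36 and 2. The lysosomal amidase NAAA and the drug-metabolizing CYP3A5 each had 26 reads and 1 read, CYP3A4 had 30 and 2, and agmatinase, AGMAT, 24 and 1. The last rows rest on few negative-side reads, so their intervals are wide, as from 3.45 to 862 for CYP3A5.

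Of the 12 largest negative fold changes that of cathepsin E, CTSE, an aspartic protease, was the largest, with 1 read and 49. FABP3, the fatty acid carrier of heart and muscle, had 55 and 615 reads, a scaled ratio of 0.0723 (0.0539 to 0.0954). ABCF2, an ATP-binding protein of the cassette family, had 20 and 165 reads, at 0.0980 (0.0584 to 0.156). NRAP, an anchoring protein of striated muscle, had 3 and 45. All 4 genes had most of their reads on the negative side. COX11, an assembly factor of cytochrome oxidase, had 21 and 112 reads, at 0.152 (0.0904 to 0.243). MID1IP1, a regulator of fat synthesis, was the most counted row of either group, with 470 and 2477 reads at 0.153 (0.139 to 0.169). The kinase PIM1 had 10 and 48 reads, a low-count row of C3 7 and 35, and the calcium-binding S100A1 1 and 23. GFRA1, a receptor for a glial growth factor, and PROM2, a membrane protein, had 1 read on the positive side against 19 and 15. The calcium channel ITPR3 had 0 and 15 reads and was at least 6.18-fold lower among positive-side reads.

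**Figure D3:**
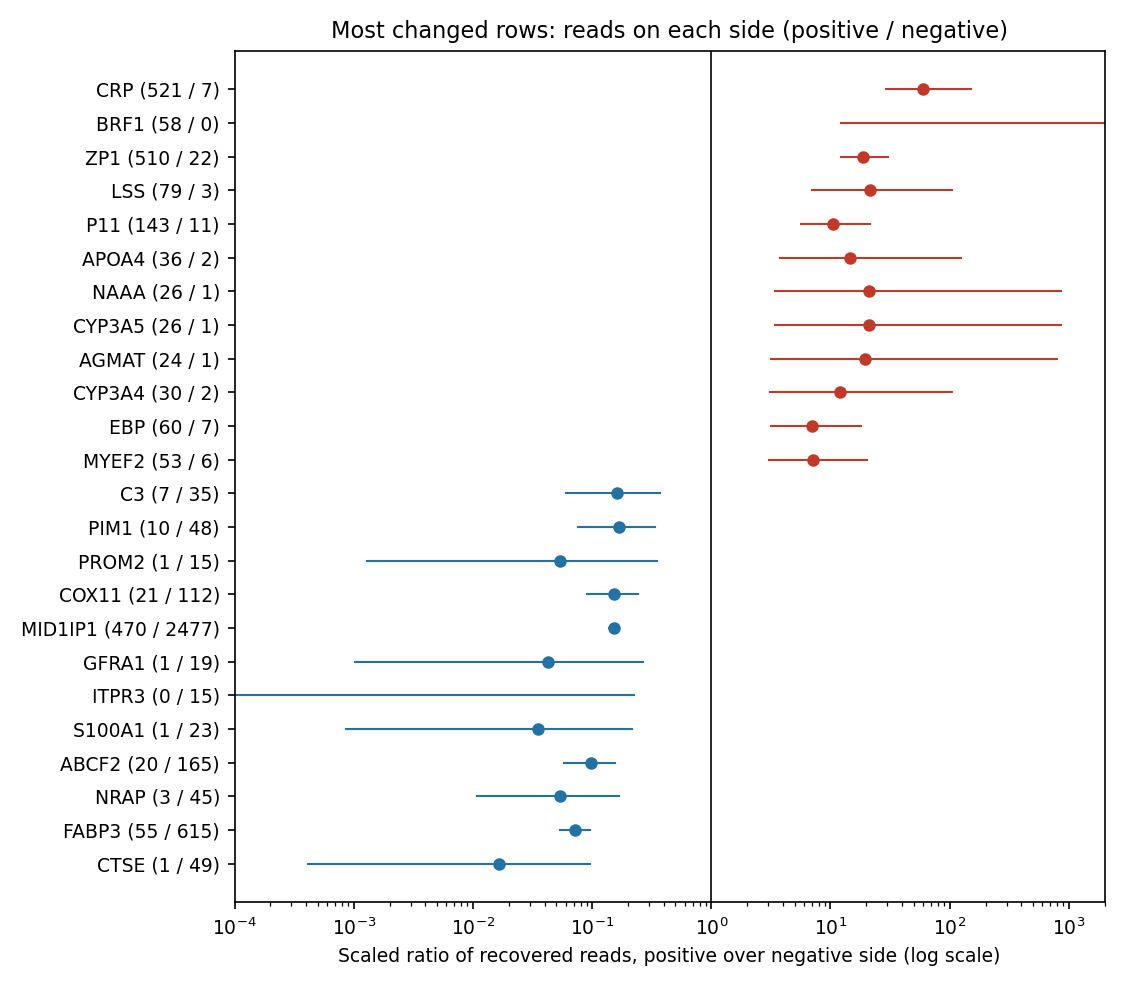
Scaled ratio of recovered reads, positive over negative side, on a log x axis for the 12 largest positive and 12 largest negative fold changes, with exact 95% intervals as bars and the reads of each side beside the name. MID1IP1, with 470 and 2477 reads, has the narrowest interval, and rows with 0 or 1 read on a side have the widest.

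Of the genes known from estrogen response, ZP1 stood far apart from the rest. Its 510 and 22 reads gave a scaled ratio of 18.8 (12.2 to 30.2), and its log2 fold change was 3.96 ± 0.26 with an adjusted p of 1.17e-50 in the authors' deposited table. Other egg envelope genes were hardly counted: ZP3 had rows of 1 and 1 and of 0 and 1 reads, and ZP4 1 and 1. The symbols ZP2, VTG1 and CYP19A1 matched no row. Since rows carry human symbols, a symbol without a row does not show that the gene was silent, and vitellogenin could not be assessed here. The estrogen receptor genes were also near the limit of detection, with 1 and 3 reads for ESR1 and 6 and 1 for ESR2. At such depth no difference between the sides was detectable by the exact test for any of these 5 rows, although the authors' test called ESR2 at an adjusted p of 0.0375 in their deposited table.

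SHBG, the steroid carrier of the blood, was higher on the negative side, with 102 and 157 reads and a scaled ratio of 0.526 (0.405 to 0.679), called by both tests. The membrane steroid-binding protein PGRMC1 was called there too, at 30 and 45 reads and 0.539 (0.328 to 0.875). Of the 5 rows of the estrogen list with a mean of at least 10, 1 was called positive and 2 negative, with -0.17 as the median log2 fold change from the authors' deposited table, against 0.10 over all 1756 rows. HSD17B6, a hydroxysteroid dehydrogenase, was the most counted steroid enzyme, at 354 and 142 reads and 2.02 (1.66 to 2.47). HSD17B12, an enzyme of the same family that also elongates fatty acids, had 21 and 9 reads and was called positive. HSD17B8 and the glucuronyl transferase UGT1A1, both under a mean of 10, were called negative at 5 and 10 and at 2 and 10 reads. IGF1, the growth factor that liver releases, had 66 and 56 reads at 0.953 (0.658 to 1.39), and CYP1A1, the enzyme induced by dioxin-like compounds, 4 and 2. Neither was called.

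Sterol synthesis had the highest median of all the gene lists summarised. Of its 9 rows with a mean of at least 10, 7 were called positive and 0 negative, with 1.77 as the median log2 fold change from the authors' deposited table, and the 9 rows together held 374 and 74 reads. The called enzymes run along the whole pathway. At its start, the thiolase ACAT2 had 33 and 6 reads, a scaled ratio of 4.45 (1.84 to 13), and phosphomevalonate kinase, PMVK, 102 and 15, at 5.50 (3.18 to 10.2). The isomerase IDI1 had 20 and 4 reads, and squalene epoxidase, SQLE, 16 and 4. Lanosterol synthase, LSS, had 79 and 3 reads, at 21.3 (7.03 to 105), and the late isomerase EBP 60 and 7, at 6.93 (3.17 to 18.0). The exact test called 4 of the 9 rows.

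Transporters and sensors of sterols went to both sides. The intestinal-type sterol importer NPC1L1 had 21 and 3 reads, and ABCG8, which pumps sterols into bile, 18 and 1. Both were called positive. The cholesterol exporter ABCA1 had 17 and 41 reads at 0.335 (0.179 to 0.604), and the lysosomal sterol carrier NPC2 6 and 17 at 0.285 (0.0922 to 0.759). Both were called negative, so that 2 of the 6 rows were called on each side. Among bile acid genes 2 of 3 rows were called positive: the peroxisomal thiolase and sterol carrier SCP2, at 170 and 68 reads and 2.02 (1.52 to 2.72), and the bile salt export pump ABCB11, at 18 and 4. Just under a mean of 10, the sterol hydroxylase CYP8B1 had 18 and 0 reads, at least 4.85-fold higher among positive-side reads.

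Fat synthesis genes did not share a direction. Beside the low MID1IP1, the acyltransferase MOGAT2 had 223 and 102 reads, a scaled ratio of 1.77 (1.39 to 2.26), and the elongase ELOVL1 63 and 20, at 2.55 (1.52 to 4.45). Both were called positive. Fatty acid synthase, FASN, had 3 and 7 reads, below a mean of 10. Of the 18 rows of fatty acid oxidation 6 were called positive and 0 negative, against 25.7% and 15.4% of all 1756 rows. The median log2 fold change of the 18 rows was 0.33 in the authors' deposited table. The 6 called were HADHB (110 and 51 reads), ACADM (73 and 35), ECHS1 (70 and 21), EHHADH (34 and 13), ACAD11 (21 and 7) and HADH (17 and 6), enzymes of the oxidation cycle in mitochondria and peroxisomes. ECHS1 had the highest scaled ratio, at 2.70 (1.64 to 4.62). The exact test called HADHB and ECHS1.

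Among small lipid-binding proteins the low FABP3 stood against retinoid carriers on the positive side. RBP4, the retinol carrier of the blood, had 89 and 37 reads, at 1.95 (1.31 to 2.94). RBP2 had 218 and 109, at 1.62 (1.28 to 2.06). Both were called positive. The apolipoprotein list, which also holds the lipid enzymes and carriers LIPC and MTTP, had 7 of 16 rows called negative and 2 positive. Over all 1756 rows the shares were 15.4% and 25.7%. The fold changes themselves were split, with 8 of the 16 rows above 0. APOA1, the main protein of high density lipoprotein, had 735 and 1118 reads at 0.532 (0.484 to 0.584), and APOB, of the low density particle, 45 and 77 at 0.473 (0.320 to 0.692). Another model of the same APOB gene is also among the 7 rows. The lipase LIPC had 190 and 242 reads at 0.635 (0.522 to 0.771) and the lipase activator APOC2 24 and 37. MTTP, which loads fat onto APOB, went the other way at 116 and 61 reads, 1.54 (1.12 to 2.13).

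**Figure D4:**
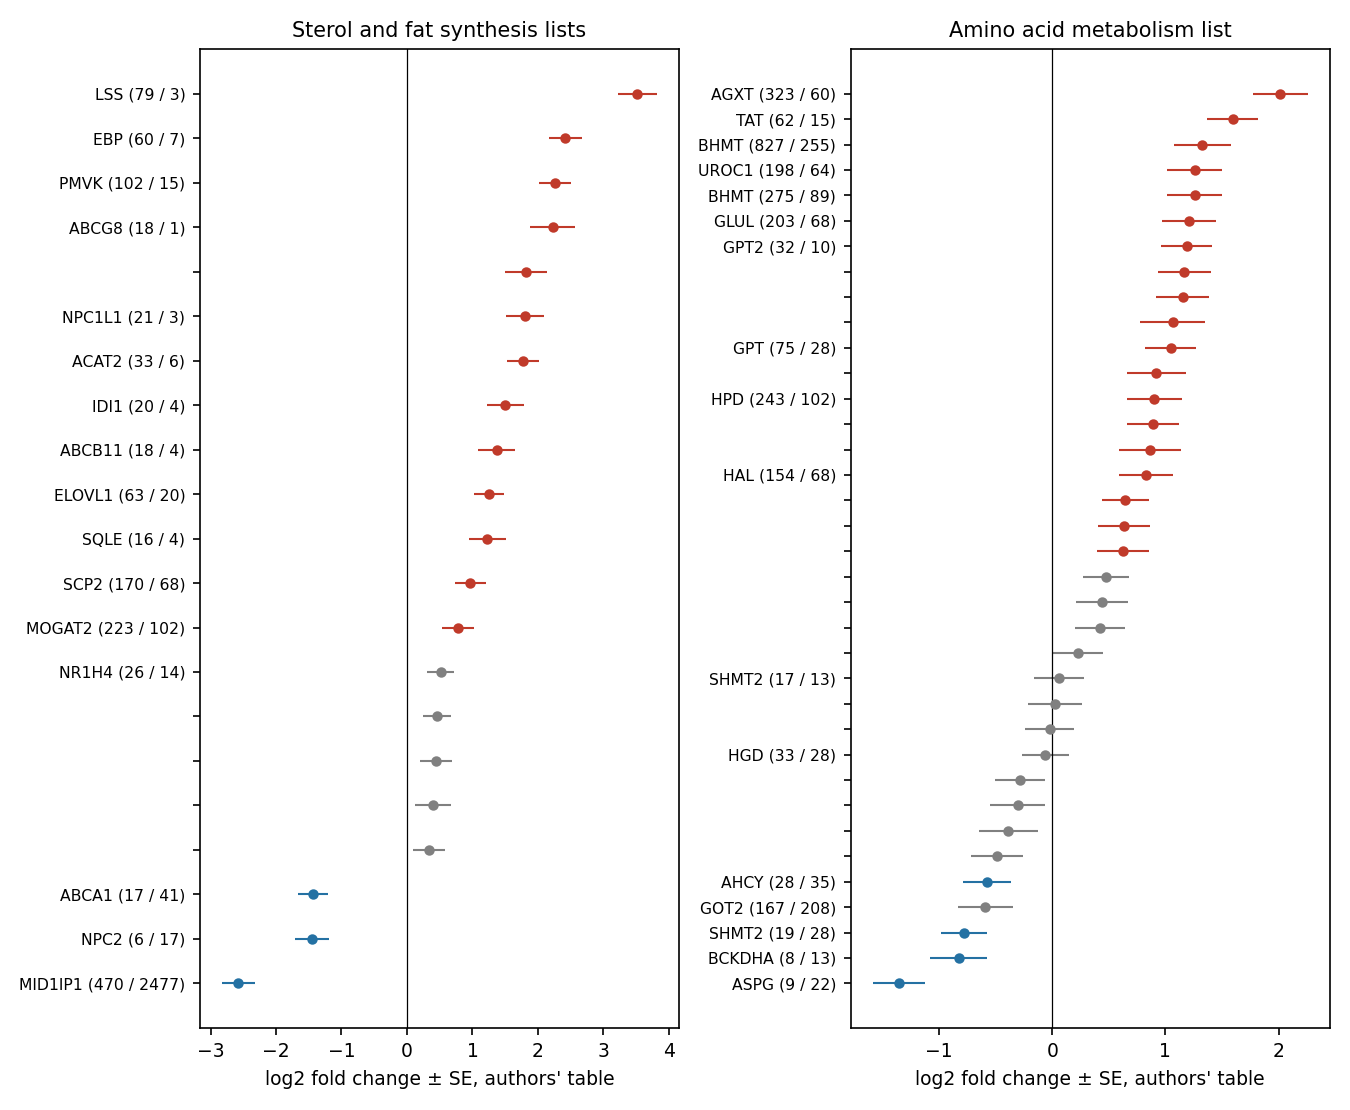
Log2 fold change with its standard error (x axis, from the authors' deposited table) for rows with a mean of at least 10, with names and the reads of each side for the genes described in the text: sterol synthesis, sterol transport, bile acid and fat synthesis lists on the left, amino acid metabolism on the right. Colour marks called rows, and 2 rows that were not called are left out. Among amino acid rows 19 are called positive and 4 negative, and LSS has the highest value of the left panel.

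Amino acid metabolism held the largest number of called rows of any list. Of its 37 rows with a mean of at least 10, 19 were called positive and 4 negative, with 0.63 as the median log2 fold change from the authors' deposited table. The exact test called 12 positive and 1 negative. BHMT, which turns homocysteine back into methionine, had 827 and 255 reads in 1 row, a scaled ratio of 2.62 (2.28 to 3.03), and 275 and 89 in another, at 2.50 (1.96 to 3.21). Its 2 rows thus had overlapping intervals. AGXT, which detoxifies glyoxylate, was the most changed, with 323 and 60 reads at 4.35 (3.30 to 5.84). HPD, of tyrosine breakdown, had 243 and 102 reads at 1.93 (1.52 to 2.45), and urocanase, UROC1, of histidine breakdown, 198 and 64 at 2.50 (1.88 to 3.37). Glutamine synthetase, GLUL, had 203 and 68, at 2.41 (1.83 to 3.23).

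Further members of the list were chosen after their values were seen. The tyrosine aminotransferase TAT had 62 and 15 reads, the alanine aminotransferases GPT 75 and 28 and GPT2 32 and 10, and histidase, HAL, 154 and 68, all called positive. Breakdown of tyrosine was not uniform, since HGD, with 33 and 28 reads, was not called. The 4 rows called negative were few in reads, namely ASPG with 9 and 22, AHCY with 28 and 35, BCKDHA with 8 and 13 and a row of SHMT2 with 19 and 28. GOT2, the mitochondrial aspartate aminotransferase, was called negative by the exact test alone, at 167 and 208 reads.

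The cytochrome P450 list also holds cytochrome b5 and its reductase, and of its 12 rows 5 were called positive and 0 negative. The exact test called 2 positive and 1 negative. By summed reads the list leaned the other way, with 887 and 815 reads and a scaled ratio of 0.88. The called rows of CYP3A4 and CYP3A5 belong to the family that oxidizes steroids and drugs, and another CYP3A4 row, at 15 and 16 reads, was not called. CYP20A1, whose substrate is not known, had 20 and 5 reads, and the electron donors CYB5A 53 and 24 and CYB5R3 13 and 5. The alcohol and formaldehyde dehydrogenase ADH5 had a called row of 206 and 53 reads, a scaled ratio of 3.14 (2.31 to 4.34), beside rows of 215 and 226 and of 74 and 71 that were not called. Thiopurine methyltransferase, TPMT, had 45 and 14, at 2.60 (1.40 to 5.13). The sulfotransferase SULT1A2 was the most counted conjugating enzyme, and it lay on the negative side with 1097 and 1615 reads at 0.549 (0.508 to 0.594). The glutathione and antioxidant list had 4 rows called positive and 3 negative of 24. Mitochondrial superoxide dismutase, SOD2, had 44 and 9 reads, at 3.95 (1.91 to 9.21), and the peroxidase GPX1 73 and 35, at 1.69 (1.11 to 2.60). The glutathione transferase MGST3 had 1 row called on each side, at 16 and 26 and at 20 and 9 reads.

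Complement and acute phase genes were called more often on the negative than on the positive side, with CRP as the largest exception. Of 23 complement rows 2 were called positive and 6 negative, with -0.31 as the median log2 fold change from the authors' deposited table. CFB, of the alternative pathway, had 1068 and 1451 reads, a scaled ratio of 0.595 (0.550 to 0.645), and C8A, of the membrane attack complex, 303 and 447, at 0.548 (0.472 to 0.636). C7, of the same complex, was called positive, with 511 and 217 reads at 1.90 (1.62 to 2.24). C7 and C8A, of a single complex, thus lay on different sides. Coagulation had 5 rows called on each side of 22, among them a row of F9 at 288 and 413 reads and 0.564 (0.484 to 0.657), and kininogen, KNG1, at 183 and 83 reads and 1.78 (1.37 to 2.34). F7 had 104 and 52 reads and protein C, PROC, 49 and 78. The plasmin inhibitor SERPINF2 was at 49 and 89 reads, 0.445 (0.308 to 0.638).

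Of 29 acute phase rows 5 were called positive and 7 negative, at a median of -0.33 in the authors' deposited table. CRP had a second, more counted row of 1458 and 212 reads, a scaled ratio of 5.56 (4.81 to 6.46), beside its row of 521 and 7. The ferritin heavy chain FTH1, which stores iron, had a called row of 583 and 226 reads at 2.09 (1.79 to 2.44) and a more counted row of 965 and 955 reads that the authors' test did not call. On the negative side, HPX had a row of 2546 and 3444 reads at 0.598 (0.568 to 0.630), and ITIH3, an inhibitor heavy chain that binds hyaluronan, had rows of 171 and 333 and of 61 and 135. Of 29 protease inhibitor rows 8 were called negative and 2 positive. SERPINA5 was called on both sides, in a row of 310 and 473 reads and a row of 206 and 97. In the iron and heme list 3 of 12 rows were called on each side, with the metalloreductase STEAP4 at 80 and 116 reads in its called row and the heme synthesis enzymes ALAS1 at 38 and 54 and UROD at 39 and 20.

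**Figure D5:**
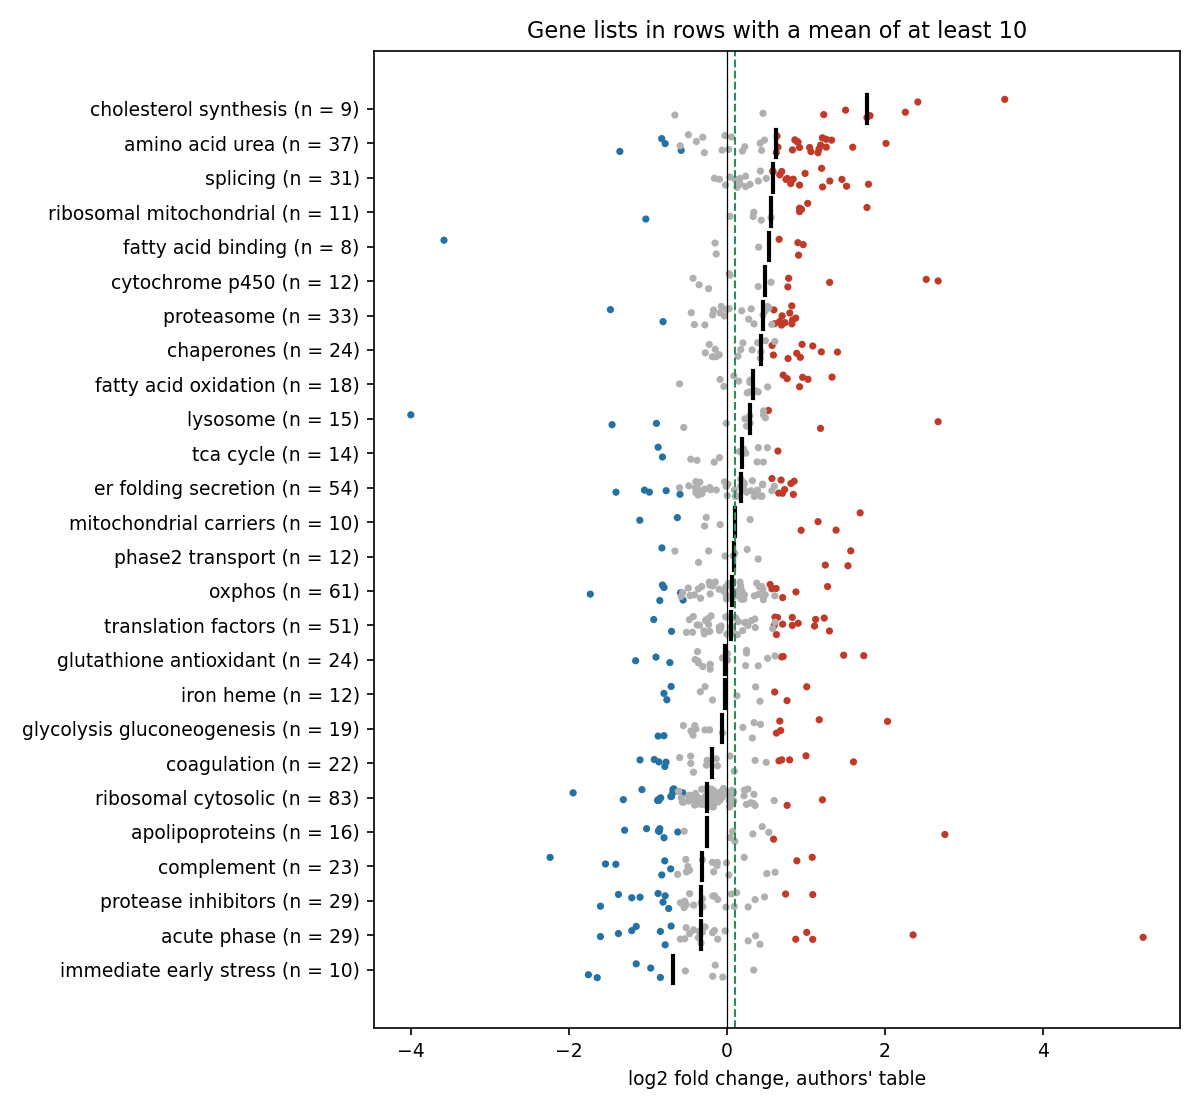
Log2 fold change in the authors' deposited table (x axis) of every row with a mean of at least 10 in the larger pathway lists (y axis). Lists with few such rows, marker lists and groups put together later are not drawn. Red and blue points are called positive and negative, and grey points are not called. Black bars are list medians, and the green dashed line is the median of all 1756 rows, 0.10. Sterol synthesis has its median at 1.77, and the immediate-early and stress list at -0.68.

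In the lists of splicing, proteasome and chaperone genes more rows were called on the positive than on the negative side. The same held for all 1756 rows with a mean of at least 10, at 25.7% and 15.4%. Of 31 splicing rows 16 were called positive and 0 negative, with 0.58 as the median log2 fold change from the authors' deposited table. The core spliceosome protein SNRPF had 46 and 9 reads, a scaled ratio of 4.13 (2.00 to 9.61), the exon junction protein RBM8A 56 and 15, at 3.02 (1.68 to 5.75), and HNRNPM 41 and 13. The exact test called 3 of the 31. Of 33 proteasome rows 11 were called positive and 2 negative, led by PSMC5, an ATPase of the regulatory particle, at 263 and 117 reads and 1.82 (1.46 to 2.28), and the catalytic PSMB7 at 145 and 64 reads and 1.83 (1.36 to 2.50). PSMA4 had 105 and 51 and PSMC1 91 and 43. Of 24 chaperone rows 9 were called positive and 0 negative, among them the mitochondrial HSPE1 at 270 and 111 reads and 1.97 (1.57 to 2.48) and the cytosolic chaperonin subunits CCT6A, CCT7 and CCT3 at 65 and 26, 57 and 26, and 49 and 16 reads.

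Genes of the secretory pathway were mixed. Of 54 rows 8 were called positive and 5 negative, with the disulfide isomerase PDIA4 at 1280 and 574 reads and 1.8 (1.63 to 1.99) and the vesicle cargo receptor TMED10 at 82 and 136 reads and 0.488 (0.366 to 0.646). Of 83 rows of cytosolic ribosomal proteins 14 were called negative and 2 positive, against 15.4% and 25.7% of all 1756 rows. Their share of negative calls was thus near that of the table, and their share of positive calls was below it. The median of the 83 rows was -0.25 in the authors' deposited table, but together they held 23.0% of the reads of each side. RPLP1, of the ribosomal stalk, had 350 and 736 reads at 0.385 (0.338 to 0.437), RPS20 823 and 1247 at 0.534 (0.488 to 0.583), and RPL29 392 and 584. By the exact test 8 of the 83 rows were called positive and 42 negative, against 9.85% and 10% of all 1756 rows. Called rows of the family thus lay on both sides, most of them on the negative. This test also called 59 negative and 23 positive among all 106 rows from a mean of 500 up. Of 11 mitochondrial ribosomal rows 5 were called positive and 1 negative, with MRPL2 at 33 and 6 reads. Translation factors had 12 of 51 rows called positive and 2 negative, a positive share near the 25.7% of all 1756 rows. The elongation factor EEF1A1 had 310 and 130 reads in its called row, at 1.93 (1.57 to 2.39), and the start-codon factor EIF1 106 and 33, at 2.60 (1.74 to 3.97).

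Central carbon metabolism showed no common direction. Of 19 rows of glycolysis and gluconeogenesis 5 were called positive and 2 negative, at a median of -0.06 in the authors' deposited table. Pyruvate kinase, PKM2, was the most changed, with 182 and 33 reads and a scaled ratio of 4.46 (3.07 to 6.68). ENO3, an enolase, had 134 and 66 reads, and glucose phosphate isomerase, GPI, lay the other way at 30 and 44. Oxidative phosphorylation had 6 of 61 rows called on each side, with ATP5B, of the ATP synthase, at 345 and 167 reads and UQCRC2, of complex III, at 61 and 19 in 1 row and 46 and 37 in another that was not called. Of 14 TCA cycle rows 1 was called positive and 2 negative. Of 10 mitochondrial carrier rows 4 were called positive and 2 negative, with the nucleotide carrier SLC25A36 at 141 and 33 reads and 3.46 (2.35 to 5.21). In the lysosome list 3 of 15 rows were called on each side, among them the protease CTSF at 767 and 1188 reads and 0.522 (0.476 to 0.572), and legumain, LGMN, at 43 and 14 reads and 2.48 (1.33 to 4.92).

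Of 10 rows of immediate-early and stress transcription factors 5 were called negative and 0 positive, with -0.68 as the median log2 fold change from the authors' deposited table, and the exact test called 3. JUNB, a subunit of the AP-1 factor, had 30 and 82 reads, a scaled ratio of 0.296 (0.188 to 0.455). CEBPB, a regulator of acute phase genes, had 72 and 135 reads at 0.431 (0.319 to 0.578) and 14 and 22 in another model of the same gene. ATF5, of the amino acid stress response, had 32 and 53 at 0.488 (0.305 to 0.772), and the clock repressor CRY1 4 and 16 at 0.202 (0.0492 to 0.627). The liver nuclear receptor HNF4A went the other way, with 75 and 27 reads at 2.25 (1.43 to 3.63). The bile acid receptor NR1H4 had 26 and 14 reads in its larger row and was not called, and the corepressor NR0B2, under a mean of 10, had 13 and 3. In the growth factor axis 1 of 4 rows was called, the signalling factor STAT5B at 20 and 24 reads. Both cell cycle rows with a mean of at least 10, H2AFZ at 46 and 17 reads and CCND2 at 19 and 6, were called positive.

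The label of liver matched the table, in which hepatocyte markers held 19.0% of positive-side and 23.7% of negative-side reads over 53 rows and 29 of 36 symbols. Among their 37 rows with a mean of at least 10, 10 were called positive and 7 negative, against 25.7% and 15.4% of all such rows. Markers of other cells were rare, except for the gut and enteroendocrine list with 7516 and 4646 reads in 14 rows. These were 2.00% and 1.40% of each side, most of them in the FABP6 row given above. Striated muscle had 41 rows with 73 and 130 reads in all, 0.0194% and 0.0391% of each side. Of these rows 2 were called positive and 4 negative, against 890 and 680 of all 9191 rows. Only 3 of the rows had a mean of at least 10, and of these 2 were called negative and 0 positive. NRAP, with 3 and 45 reads, and myoglobin, MB, with 7 and 24, made up most of the negative-side reads. ACTA1, MYH1 and the other symbols among the 32 of 53 without a row are not counted in these sums.

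Endothelial and stellate markers had 33 rows with 498 and 643 reads. Of these rows 1 was called positive and 8 negative, against 890 and 680 of all 9191 rows. Only 4 of the rows had a mean of at least 10, and of these 2 were called negative and 0 positive. Fibronectin, FN1, which hepatocytes also secrete, held 333 and 447 of the 498 and 643 reads in its larger row, which was called negative. A smaller FN1 row, which was not called, held more of them. The collagen COL1A2 had 6 and 20. Leukocyte markers summed to 295 and 262 reads in 26 rows, with lysozyme, LYZ, at 165 and 129, while MMP13 had 1 row of 43 and 36 reads and another of 0 and 8. Of the 26 leukocyte rows 1 was called positive and 3 negative. Among the 5 with a mean of at least 10, 0 were called positive and 1 negative. Erythrocyte markers summed to 415 and 438 reads in 13 rows, with the globins HBE1 at 209 and 247 and HBZ at 176 and 154. Neither of these globin rows was called by the authors' test. A less counted HBZ row, with a mean of 17.1, was called negative by it, at -1.43 on the log2 scale and an adjusted p of 1.09e-07. It was the only call among the 3 erythrocyte rows with a mean of at least 10. Over all 13 rows, 0 were called positive and 2 negative. Of exocrine pancreas, whose tissue can lie within fish liver, there were 324 and 252 reads in 20 rows, most of them CTRL at 205 and 164. CTRL was not called. Of the 5 pancreas rows with a mean of at least 10, 1 was called on each side. They were a row of AMY2A at a log2 fold change of 0.93 and a row of PRSS1 at -1.84 in the authors' deposited table. Bile duct markers had 631 and 501 reads in 30 rows, with KRT18 called on both sides in rows of 174 and 80 and of 9 and 24 reads, and KRT19 at 6 and 22. Testis markers had 4 and 2 reads. The part of these cell types in the results above was not tested.

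Rows of the same symbol are separate fugu gene models. Some are models of the same fugu gene, and others may be copies of a gene. Such rows may share reads, and the counting of reads from near-identical copies is not stated. Among rows with a mean of at least 10, 143 symbols were carried by more than 1 row. The rows of 91 of these symbols (63.6%) lay all on the same side, and the median range of log2 fold change between rows of a symbol was 0.51 in the authors' deposited table. For 10 symbols rows were called on opposite sides, among them SERPINA5, KRT18, MGST3 and APOA4. The oppositely called rows of SERPINA5 are models of the same fugu gene, and so are those of KRT18. APOA4 spanned the widest range, 3.56, from its row of 148 and 214 reads, at a scaled ratio of 0.559 (0.451 to 0.693), to its row of 36 and 2. A call for any of these symbols therefore holds for its row and not for the gene.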

How the data were processed

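Liver RNA of 5 EE2-exposed and 5 control mackerel was compared in 1 result table. Per the file headers, the deposited columns hold a mean normalized count (unit signal), a log2 fold change with standard error, a Wald score, and a p-value before and after adjustment. Per the submitters' processing notes, the authors used CASAVA 1.8 and DESeq2 and named GRCz10; which aligner, counter, filters and DESeq2 version they used is not given in the sources used here. Per the labels, RNA had an integrity number above 7.

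All other values were computed with python 3.11.15, numpy 2.4.6, pandas 2.3.3 and scipy 1.17.1. Each mean was solved as 0.455 times positive-side reads plus 0.563 times negative-side reads plus 1.66, a constant of unknown origin. All 9191 rows had a solution within 5e-06 counts, 5 of them several, of which the one nearest the fold change was taken. Of means shifted off the grid, 20 rows (0.218%) had one. The 2 totals are not known to be sums over 5 fish. Ratios carry exact Clopper-Pearson 95% intervals. The exact two-sided binomial test used an expected positive-side share of 55.3% and Benjamini-Hochberg adjustment over all rows. It compares 2 totals, not fish, and without molecular identifiers PCR copies count as separate reads, so counting error is all that intervals and floors cover. The recovery was also run on means simulated from the same grid, which cannot show that the deposited means arose from 2 totals. Where a side had 0 reads, a floor of 3 counts on that side was used.

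Rows were matched to lists by human symbol; 18 symbols read as dates and 24 as transcript numbers. Named were the 15 most counted rows, the 12 largest positive and 12 largest negative fold changes among called rows with a mean of at least 10, up to 6 rows per list (called first, by mean), and a set of hormone genes. The cell marker lists did not follow this order, and well-counted rows that were not called are also named there. Members, lists and this rule were chosen with earlier results of these data known. Lists are described by counts and medians, with no set test. Gene sequences and coordinates were not used here, and a few genes are not reported here.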

Additional observations from a re-analysis of the deposited data

How the results depend on the processing

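No paired analysis was possible because the table holds no values per fish and the labels give no numbers that pair them; for the same reason no fish could be left out. The 890 rows called positive in the authors' deposited table became 1088 at an adjusted p under 0.1, 510 under 0.01, 451 with a mean of at least 10, 88 with a mean of at least 50 and 190 by the exact test, with 237 when scaled by read totals and 213 without the 10 most counted rows in those totals. The 680 called negative became 1123, 372, 271, 72, 184, 140 and 163 in turn, so that negative calls outnumber positive ones at 0.1. Fold changes and list medians scaled by read totals were an alternative chosen after seeing the data. With a mean of at least 50, log2 fold changes of at least 1 in size numbered 34 positive and 28 negative. Of 260 alternative list medians 233 moved little and 4 changed sign. Over all rows, the sterol synthesis median was 1.30, splicing 0.33 and proteasome 0.19, fat synthesis turned from 0.59 to -0.016 and apolipoproteins from -0.25 to 0.039. As log2 of the scaled read ratio, with a mean of at least 10, sterol synthesis was at 2.15. With 1 row per symbol apolipoproteins were at -0.62. With a mean of at least 50 they were at -0.54, amino acid metabolism at 0.97, the lysosome list turned from 0.29 to -0.55 and bile duct markers from -0.28 to 0.17. Symbols with all rows on the same side went from 63.6% to 50.5% over all rows. The cause was not tested, and the number of rows entering differs. Depth limits the rest: 578 called rows had under 10 reads, and 848 calls lay below a mean of 10.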

Other observations

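The gene groups below were put together after their values were seen, and their counts are a description. Of 23 rows of ribosome assembly with a mean of at least 10, 11 were called positive and 1 negative in the authors' deposited table. The pseudouridine synthase DKC1 had 255 and 74 reads, a scaled ratio of 2.79 (2.14 to 3.66), the nucleolar methyltransferase FBL 74 and 18, at 3.33 (1.97 to 5.92), and RCL1 91 and 28, at 2.63 (1.70 to 4.17). The related NOP56, at 122 and 85 reads, was not called. Ribosome assembly and the cytosolic ribosomal proteins thus had their medians on different sides, at 0.50 and -0.25. The ribosomal proteins held 23.0% of the reads of each side, and all rows from a mean of 500 up had a median of -0.20. Of 6 rows of nuclear transport 4 were called positive and 1 negative, with RAN at 135 and 64 reads and its binding protein RANBP1 at 34 and 9. Of 15 rows of transfer RNA synthetases 7 were called positive and 2 negative, with SARS at 37 and 8 reads and GARS at 37 and 51.

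Transaldolase, TALDO1, an enzyme of the pentose phosphate pathway, had 6 and 20 reads, a scaled ratio of 0.243 (0.0797 to 0.627). DIO3, which inactivates thyroid hormone, had 13 and 47 reads, at 0.224 (0.111 to 0.420), and IFI27, an interferon-induced gene, 24 and 98, at 0.198 (0.121 to 0.312). Of 11 transcripts of the mitochondrial genome 1 was called by the authors' test, ATP6, at 829 and 1340 reads and 0.500 (0.458 to 0.546). COX1, at 1.42 on the other side, was not called by that test. The exact test called 1 of the 11 positive and 5 negative, against 9.85% and 10% of all 1756 rows. Fold changes of 3 of the 11 were above 0.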
